A study of Mus musculus with 18 samples.

Results

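10 regional identity factors of the stomach and duodenum, Sox2, Sox21, Gata4, Gata5, Gata6, Pdx1, Nkx6-3, Barx1, Cdx1 and Cdx2, were followed across every deposited cell cluster of the adult mouse gastric epithelium. They were chosen by name for their known roles, as 10 of the 31201 gene names in the count tables. All 10 were listed in the table that holds corpus and antrum cells (dataset 1), and 9 were listed in the corpus table (dataset 2), where Cdx2 was not. The cells came from male, wild-type C57BL/6J mice 10 weeks of age with no treatment, and RNA was counted as unique molecular identifiers (UMIs) by Quartz-Seq2, a plate-based single-cell method. Each dataset holds 2 pools of 3 mice, called the first and the second pool in dataset 1 and pools K and T in dataset 2, prepared by different operators. In dataset 1, corpus and antrum cells negative for a dead-cell dye (ToPro3 in the labels, propidium iodide in the study's methods) were sorted together. In dataset 2, corpus cells positive for Hoechst33342 and negative for ToPro3 were sorted. The region of a cell in dataset 1 is therefore known only through its cluster.

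Endoderm along the gut tube acquires its regional identity from transcription factors that are expressed in overlapping domains. SOX2, an HMG box factor, marks the foregut and stomach epithelium, and SOX21 is a related factor that represses transcription. GATA4, GATA5 and GATA6 are zinc finger factors of endoderm. PDX1 is a homeodomain factor of the antrum, duodenum and pancreas, and NKX6-3 is a homeodomain factor of the antrum that is needed for gastrin cells. BARX1 acts in the mesenchyme around the embryonic stomach, and CDX1 and CDX2 are the homeodomain factors that specify intestine.

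Promoter sequences are shown for both Sox genes, which were higher in pit cells than in the duodenum, and for the neighbouring genes Pdx1 and Cdx2, with matches to simple motifs in capitals. They come from a RefSeq promoter table built on GRCm38.p6, run from 250 bases before to 50 bases after the start site of that table, and were placed on GRCm39 by an exact match. That start site need not be the gene start given by GENCODE. The Sox2 window lies at chr3:34703894-34704193 on the forward strand, the Sox21 window at chr14:118474393-118474692 on the reverse strand, the Pdx1 window at chr5:147206657-147206956 on the forward strand, and the Cdx2 window at chr5:147244010-147244309 on the reverse strand.
Sox2: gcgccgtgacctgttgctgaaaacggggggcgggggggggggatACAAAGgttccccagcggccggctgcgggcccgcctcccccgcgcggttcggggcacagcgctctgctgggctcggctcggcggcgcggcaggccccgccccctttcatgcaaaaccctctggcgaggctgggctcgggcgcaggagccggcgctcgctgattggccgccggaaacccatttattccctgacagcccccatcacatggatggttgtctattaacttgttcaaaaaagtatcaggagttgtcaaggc
Sox21: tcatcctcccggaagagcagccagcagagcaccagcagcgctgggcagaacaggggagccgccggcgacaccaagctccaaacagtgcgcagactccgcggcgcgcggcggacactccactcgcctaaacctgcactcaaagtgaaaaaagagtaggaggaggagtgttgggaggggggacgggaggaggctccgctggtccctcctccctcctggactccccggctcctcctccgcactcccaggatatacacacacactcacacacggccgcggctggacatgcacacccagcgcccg
Pdx1: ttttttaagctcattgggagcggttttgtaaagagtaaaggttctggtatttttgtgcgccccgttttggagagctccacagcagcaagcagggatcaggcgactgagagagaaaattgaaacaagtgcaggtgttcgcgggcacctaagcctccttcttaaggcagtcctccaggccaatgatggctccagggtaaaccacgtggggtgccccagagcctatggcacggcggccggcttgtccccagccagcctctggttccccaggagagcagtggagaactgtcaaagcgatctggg
Cdx2: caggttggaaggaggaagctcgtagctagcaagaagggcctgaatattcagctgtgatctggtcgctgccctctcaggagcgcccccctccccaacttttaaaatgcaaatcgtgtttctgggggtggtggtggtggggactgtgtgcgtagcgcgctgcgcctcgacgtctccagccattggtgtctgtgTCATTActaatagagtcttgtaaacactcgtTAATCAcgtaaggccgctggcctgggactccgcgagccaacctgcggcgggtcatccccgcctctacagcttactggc
Motifs searched on both strands were GATAA (GATA factors), ACAANG (SOX factors), TTTATNG (CDX factors) and TAATNA (homeodomain factors). They occur in 25.4%, 41.2%, 10.9% and 26.5% of the 32851 windows in the table. The capitals in Sox2 mark 1 SOX motif, ACAAAG, that begins 206 bases before the start. Those in Cdx2 mark 2 homeodomain motifs that begin 59 and 28 bases before it, and the Sox21 and Pdx1 windows hold none of the 4 motifs. Windows were given for 6 of the 10 members, and of these 1 holds the SOX motif, 1 the homeodomain motif, and 0 the GATA or CDX motif. Pdx1 and Cdx2 are neighbours in a ParaHox cluster, 24956 bases apart on mouse chromosome 5 (GRCm39).

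The tables hold 491 kept cells in 15 clusters for dataset 1 and 3993 kept cells in 20 clusters for dataset 2. Plates held 3054370 to 5346035 UMIs in dataset 1 and 10540256 to 12850942 in dataset 2, and the median kept cell had 38757 and 31020 UMIs. The 384 well barcodes are reused on every plate of both datasets, so a cell is identified only by its plate and barcode together. Groups compared in dataset 1 were the corpus pit (mucous surface) cells of cluster 8 (mature) and cluster 2 (pre-pit), 72 cells in all, the antrum pit cells of clusters 1 (mature) and 6 (pre-pit), 81 cells, and the 70 duodenum cells of cluster 5-7. Both corpus pit clusters expressed all 3 corpus pit markers (Sctr, Basp1, Nrn1), summed at 586 and 447 CPM (UMI counts scaled to the same total in every sum), against 84.5 and 21.3 in the antrum pit clusters. These sums hide uneven detection. Nrn1 was found in 0 of the 8 corpus pit cells with a Pdx1 UMI and in 10 of the 64 without. Sctr was found in 34 of the 56 antrum pit cells with a Pdx1 UMI and in 13 of the 25 without. In the latter, 82 Basp1 UMIs lay in 4 cells. The antrum markers (Krt7, Krt20, Fcgbp) summed to 2686 and 3243 in the antrum clusters and to 120 and 22.0 in the corpus clusters. In antrum pre-pit cells, however, 2 cells rich in Fcgbp held 2963 of the 3383 UMIs of these markers, and 26 of the other 30 cells had a UMI of Krt7 or Krt20. All 8 enterocyte markers were present in the duodenum at a sum of 79444 CPM (Apoa1 18742, Alpi 11956, Fabp1 9330), whereas the 4 Paneth cell markers summed to 8.94, with Defa30 at 0. The 3 T cell markers (Cd3e, Cd3d, Trac) summed to 32.7 there and to 0 in the 4 pit clusters. Duodenum cells also had fewer UMIs (median 17439, against 55721 in antrum pit and 53625 in corpus pit cells), more mitochondrial UMIs (median 13.4%, against 4.60% to 5.08% in the 4 pit clusters) and transcripts of pit cell genes such as Gkn2 at 1952 CPM (58994 in antrum mature pit cells). The part of these differences in the results was not tested.

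Levels below are CPM after TMM scaling within a dataset, given for the sum of all cells of a cluster or group in each pool. Levels of cells split by a Pdx1 UMI and levels of single plates are exceptions. They are CPM with no TMM scaling, and the split levels merge the pools. Differences are log2 differences from one edgeR quasi-likelihood fit per dataset, with Benjamini-Hochberg adjusted p-values over all genes tested. In dataset 1 the difference of a pit group is the mean of its mature and pre-pit clusters. The fit tested 10653 genes and 8 members. Barx1 and Cdx2 fell under its low-count filter. Because the authors drew the clusters from these same counts, a p-value between clusters depends in part on how the cells were clustered. With 2 pools of mice per dataset, they measure the spread between pools only. Where a pool is said to be left out, it was removed only from the clusters or types compared. These then had no replicate, and the spread came from clusters or types that were not compared. A p-value or call from such a fit is therefore not a replication in the remaining pool.

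Corpus and antrum pit cells differed in 4 of the 8 members tested (7.89% of all genes tested were called, 3.16% as higher and 4.73% as lower in the corpus). Pdx1, Nkx6-3 and Sox21 were lower in the corpus, and Gata4 was higher. Between antrum pit and duodenum 5 of the 8 members were called (48.2% of all genes, 22.7% higher and 25.5% lower in the antrum): Sox2, Sox21 and Gata4 were higher in the antrum, and Pdx1 and Cdx1 were higher in the duodenum. Between corpus pit and duodenum 6 of 8 were called (50.5% of all genes, 23.6% higher and 26.8% lower in the corpus), with Sox2, Sox21 and Gata4 higher in the corpus and Pdx1, Nkx6-3 and Cdx1 higher in the duodenum. The median log2 difference over the 8 members was −0.85 for corpus against antrum pit, 0.43 for antrum pit against duodenum and 0.19 for corpus pit against duodenum, with −0.01, 0.02 and 0.03 over all genes. These 3 comparisons share groups, so their values are set side by side and are not separate evidence.

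**Figure D1:**
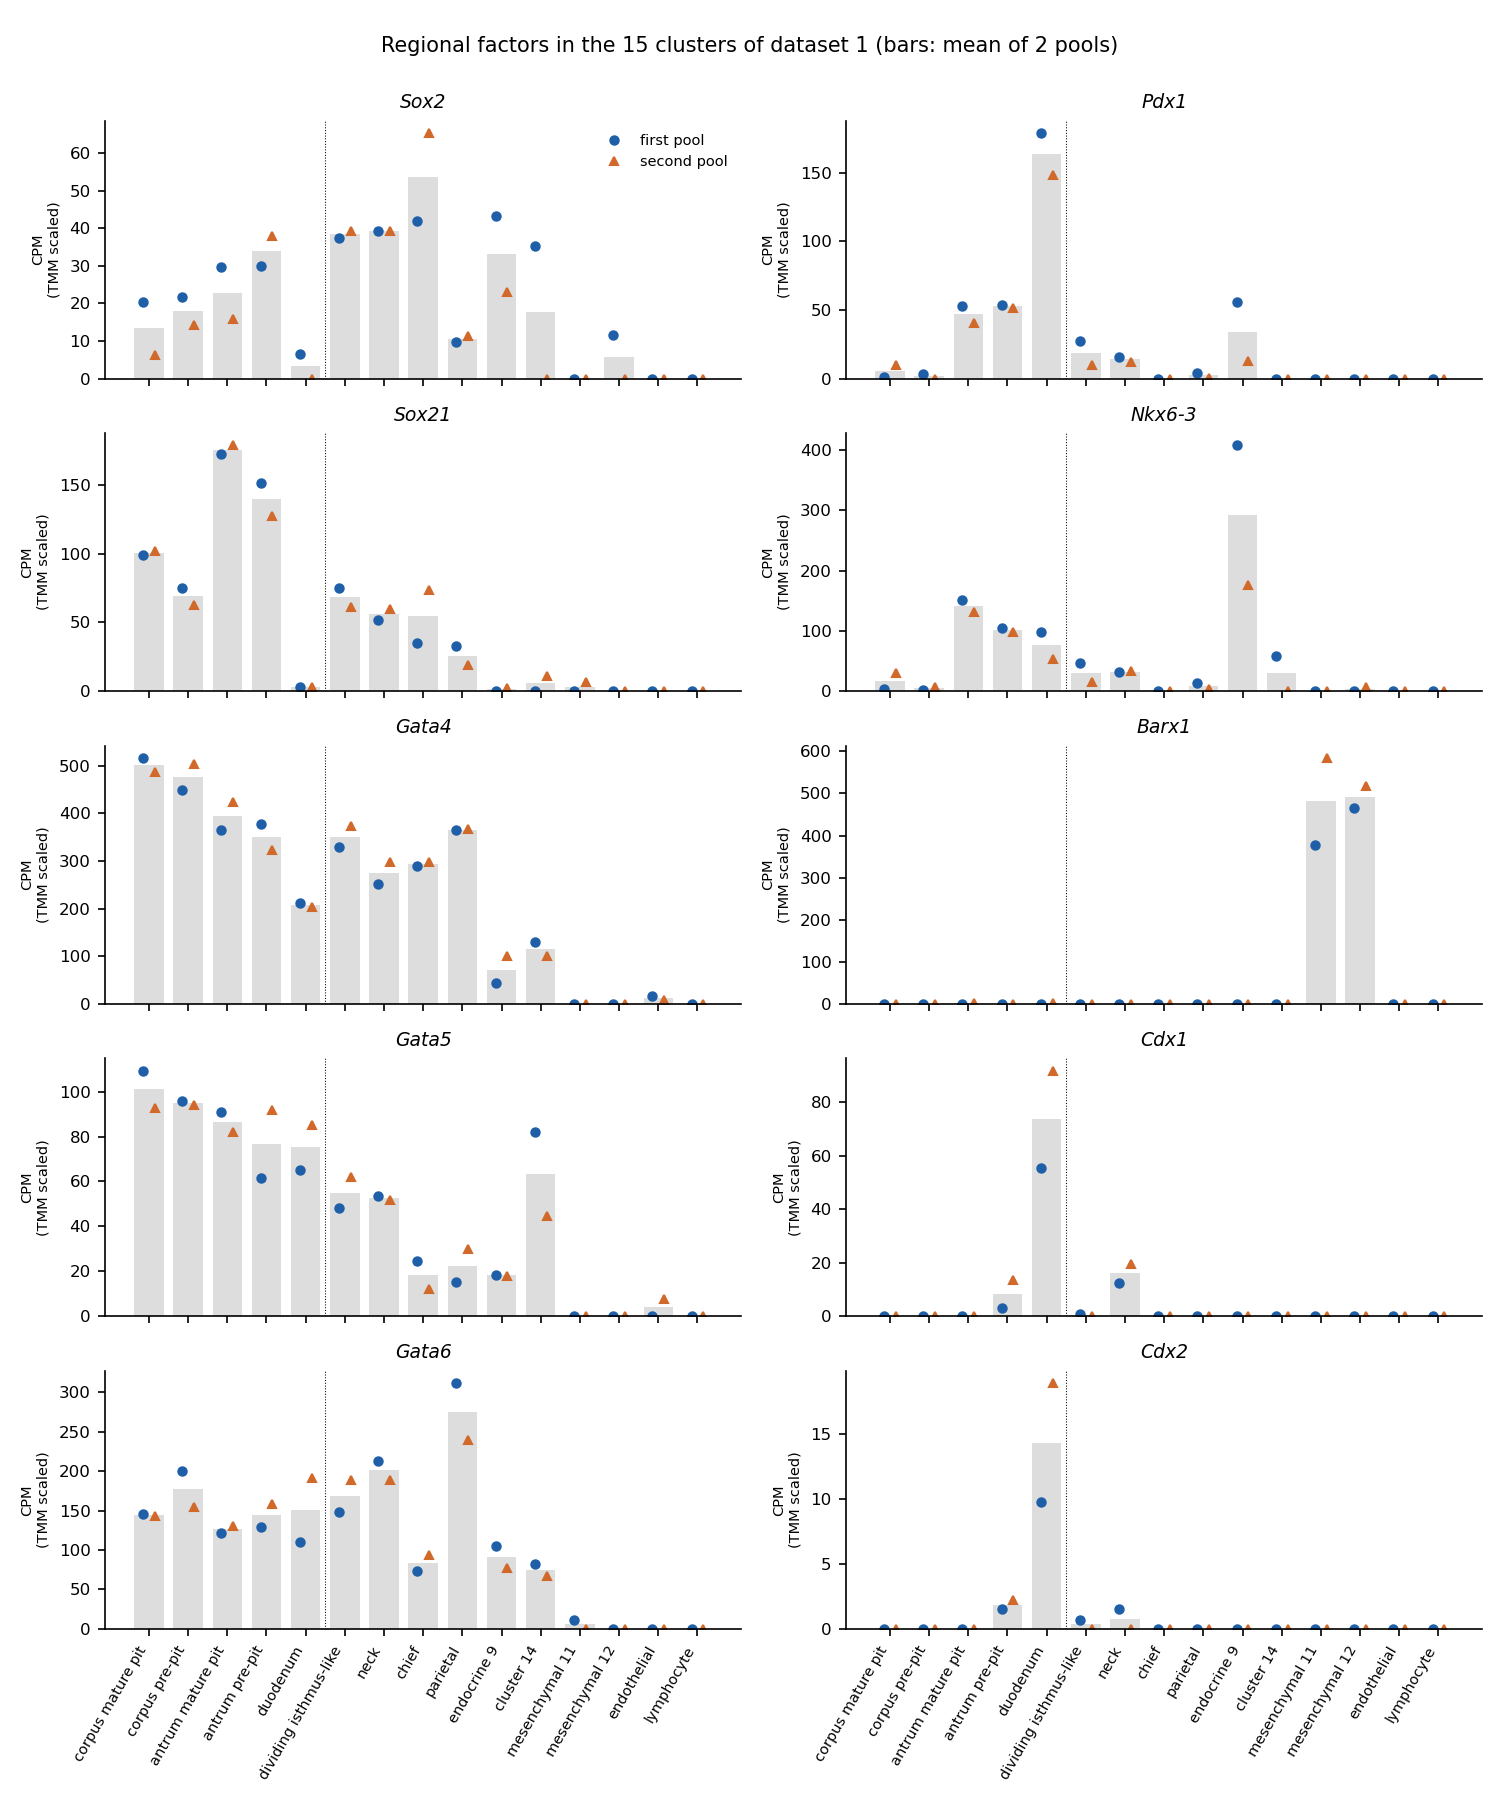
Level of each of the 10 members in the 15 clusters of dataset 1, in CPM after TMM scaling, with bars for the mean of 2 pools and points for each pool. The dotted line separates the 4 pit clusters and the duodenum from the remaining clusters. Pdx1, Cdx1 and Cdx2 were at their highest mean in the duodenum, Sox21 in antrum mature pit cells, and Barx1 in the 2 mesenchymal clusters.

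Sox2 was measured at 21.2 and 10.8 CPM in the corpus pit cells of the first and second pool, at 29.8 and 23.2 in antrum pit cells, and at 6.51 and 0 in the duodenum. Each antrum value exceeded each corpus value, and the duodenum lay below all 4 values. The log2 difference between corpus and antrum pit was −0.80 (SE 0.32) and did not pass the test (edgeR, adjusted p = 0.157). Sox2 was lower in the duodenum than in the antrum pit, with 2 UMIs against 92, a ratio of 14.2 with a counting interval of 3.83 to 119 (adjusted p = 0.000369), and lower than in the corpus pit, with 2 against 56 UMIs, a ratio of 8.81 (2.33 to 74.5; adjusted p = 0.00623). Both calls were lost without the second pool, where the log2 differences were 2.11 and 1.65 (adjusted p = 0.0655 and 0.146), and the duodenum had 0 Sox2 UMIs without the first. Over the 15 clusters the mean level was highest in chief cells, the pepsinogen-secreting cells of the corpus, at 53.7 ± 16.6 (SD, n = 2 pools; 41.9 and 65.4). Neck cells (39.2 ± 0.0312), dividing isthmus-like cells (38.4 ± 1.40) antrum pre-pit cells (34.0 ± 5.72) and endocrine cluster 9 (33.1 ± 14.3) followed. Among neighbours in this order only chief and neck cells did not overlap, and 1 pool of the endocrine cluster exceeded the lower chief value. Without TMM scaling the highest mean was in endocrine cluster 9. Parietal cells, which secrete acid, were at 10.5 ± 1.07.

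Sox21 differed between all 3 groups. It stood at 165.3 and 161.5 CPM in antrum pit cells, 83.7 and 80.5 in corpus pit cells, and 3.257 and 2.704 in the duodenum. The 3 groups did not overlap. The corpus minus antrum difference was −0.89 (SE 0.13; adjusted p = 0.000207), and it missed the threshold without the first pool (adjusted p = 0.0678). Sox21 in the duodenum rested on 3 UMIs, against 554 in the antrum pit, a ratio of 57.2 (counting interval 19.5 to 278; adjusted p = 3.56e-10), and against 274 in the corpus pit, a ratio of 28.7 (9.73 to 140; adjusted p = 1.42e-08). By cluster, the order was antrum mature pit (175 ± 4.48), antrum pre-pit (139 ± 16.7), corpus mature pit (101 ± 2.10) and corpus pre-pit (68.9 ± 8.81), with no overlap between neighbours. Corpus pre-pit cells overlapped with isthmus-like cells (68.1 ± 9.53), and neck cells (55.9 ± 5.77) with chief cells (54.3 ± 27.3). After each cell was thinned to 10000 UMIs, Sox21 was detected in 67.9% of antrum pit cells (55 of 81; exact 95% interval 56.6% to 77.8%; 97.5% unthinned) and in 40% of corpus pit cells (28 of 70; 28.5% to 52.4%; 87.5% unthinned). In the duodenum it was detected in 0 of 61 cells, which allows a share of cells with a UMI of up to 4.92% by 3 counts of the total and 5.87% by the exact interval (2.86% unthinned). Cells with fewer than 10000 UMIs were left out of thinned shares, 9 in the duodenum, 2 in the corpus pit and 0 in the antrum pit. Intervals cover counting error only.

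Gata4 was detected in every epithelial cluster, at 473 and 496 CPM in the corpus pit, 370 and 390 in the antrum pit, and 212 and 204 in the duodenum. No value of 1 group reached that of another. Corpus pit cells exceeded antrum pit cells by 0.40 on the log2 scale (SE 0.10; adjusted p = 0.0187), and this call was lost without the first pool (adjusted p = 0.244) or the second (0.277), and when all 15 clusters were fitted together (0.0805). The antrum pit exceeded the duodenum by 0.85 (SE 0.14; adjusted p = 7.29e-05) and the corpus pit by 1.25 (SE 0.14; adjusted p = 6.41e-07). Across clusters, corpus mature pit (502 ± 20.9) and corpus pre-pit cells (477 ± 39.4) overlapped with each other and lay above antrum mature pit (395 ± 41.7), parietal (366 ± 1.55), isthmus-like (351 ± 31.7) and antrum pre-pit cells (350 ± 40). Gata4 was 71.4 ± 39.8 in endocrine cells and 0 in 3 of the non-epithelial clusters.

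Gata5 and Gata6 gave no call in any of the 3 regional comparisons. Gata5 was 101 and 93.4 CPM in the corpus pit, 81.2 and 85.2 in the antrum pit, and 65.1 and 85.2 in the duodenum, where the pools spanned the antrum values. Its log2 differences were 0.30 (SE 0.16) for corpus minus antrum pit, 0.05 (SE 0.22) for antrum pit minus duodenum and 0.35 (SE 0.22) for corpus pit minus duodenum, with adjusted p = 0.32, 0.882 and 0.19. Gata6 was 181 and 149 in the corpus pit, 124 and 140 in the antrum pit, and 111 and 191 in the duodenum, so that the 2 duodenum pools enclosed both pit groups. Its differences were 0.28 (SE 0.15), −0.24 (SE 0.20) and 0.03 (SE 0.20), with adjusted p = 0.341, 0.338 and 0.914. Adjusted p-values above the threshold do not show that these levels were equal. By cluster, Gata5 was highest in pit cells (corpus mature pit 101 ± 11.9) and low in parietal (22.6 ± 10.5) and chief cells (18.4 ± 8.63), whereas Gata6 was highest in parietal cells (275 ± 51.1; 311 and 239), above neck cells (201 ± 17.2) in both pools.

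Pdx1 was at 2.58 and 4.31 CPM in the corpus pit, 53.3 and 44.1 in the antrum pit, and 179 and 149 in the duodenum. The 3 groups did not overlap and rose from corpus to duodenum. The antrum pit held 109 and 59 Pdx1 UMIs in the 2 pools and the corpus pit 5 and 6, a ratio of 15.0 after scaling (counting interval 8.19 to 30.7), and the fitted difference was −3.87 (SE 0.47; adjusted p = 2.43e-05). Duodenum cells exceeded antrum pit cells by a ratio of 3.17 (2.54 to 3.96), with a log2 difference of antrum minus duodenum of −1.68 (SE 0.30; adjusted p = 0.000125). They exceeded corpus pit cells by a ratio of 47.7 (26.0 to 97.4; log2 difference −5.55, SE 0.45; adjusted p = 5.71e-09). In corpus pre-pit cells all 4 Pdx1 UMIs came from the first pool. The differences from antrum and duodenum were −5.32 and −7.03 without the first pool and −4.52 and −6.31 without the second. By cluster, the duodenum (163.9 ± 21.5) was followed by antrum pre-pit (52.6 ± 1.72) and antrum mature pit cells (46.7 ± 8.92), which overlapped, then by endocrine cells (34.2 ± 30.3), isthmus-like cells (18.7 ± 12.2) and neck cells (14.0 ± 2.33). Corpus mature pit cells (5.52 ± 5.74), parietal cells (2.43 ± 2.68) and corpus pre-pit cells (1.60 ± 2.26) were lower, and 6 clusters, chief cells among them, had 0.

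In thinned cells Pdx1 was detected in 54.1% of duodenum cells (33 of 61; exact 95% interval 40.8% to 66.9%), 33.3% of antrum pit cells (27 of 81; 23.2% to 44.7%) and 4.29% of corpus pit cells (3 of 70; 0.893% to 12%). Thinned to 5000 UMIs, which kept all 70 duodenum cells, the shares were 42.9%, 16.0% and 2.78%. Without thinning the shares were 78.6%, 69.1% and 11.1%. Parietal cells of the corpus, taken as a type that should lack Pdx1, gave 1.75% (0.0444% to 9.39%; 5.26% unthinned) at a median of 64127 UMIs. The intervals of the corpus pit and parietal shares overlap, and no difference between them is read at this depth. Unthinned, 5 of the 8 corpus pit cells with a Pdx1 UMI also had Nkx6-3 (33.8 CPM), against 5 of the other 64 (3.74 CPM).

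Nkx6-3 was lower in the corpus pit than in both other groups. Corpus pit cells were at 3.10 and 17.2 CPM, antrum pit cells at 135 and 120, and duodenum cells at 97.7 and 54.1. The corpus values lay below all others, and the duodenum values lay below the antrum ones. Corpus against antrum, 30 UMIs stood against 438, a ratio of 14.4 (9.92 to 21.6), with a log2 difference of −3.83 (SE 0.42; adjusted p = 6.42e-06). The corpus pit was also below the duodenum, by a ratio of 7.42 (4.77 to 11.8; log2 difference −3.03, SE 0.57; adjusted p = 0.000188). Without the first pool these differences were −2.99 and −1.87, and without the second −5.19 and −4.88. Between antrum pit and duodenum the ratio was 1.94 (1.5 to 2.53), and the log2 difference of 0.80 (SE 0.39) missed the threshold (adjusted p = 0.0999; with no low-count filter 0.79, adjusted p = 0.00362). The highest cluster was endocrine cluster 9, at 292 ± 163.8 (408 and 176), above antrum mature pit (141 ± 13.5), antrum pre-pit (102 ± 4.49) and duodenum cells (75.9 ± 30.8). In thinned cells 64.2% of antrum pit cells (52 of 81; 52.8% to 74.6%; 91.4% unthinned), 26.2% of duodenum cells (42.9% unthinned) and 5.71% of corpus pit cells (1.58% to 14.0%; 13.9% unthinned) had an Nkx6-3 UMI.

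Whether the regional difference itself changed between pre-pit and mature pit cells was asked by the interaction of region and maturity. No member of the 8 tested was called (0.0188% of all genes, 2 genes, or 0.00939% in each direction), and 0 members had an unadjusted p under 0.05, as in DESeq2, which called 0 members and 12 genes. Over all genes 560 had an unadjusted p under 0.05 in edgeR. The interaction was 1.58 (SE 1.23) for Pdx1 and 1.62 (SE 1.03) for Nkx6-3, with adjusted p = 0.975 and 0.949, so large changes of the regional difference with maturity remain within error.

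**Figure D2:**
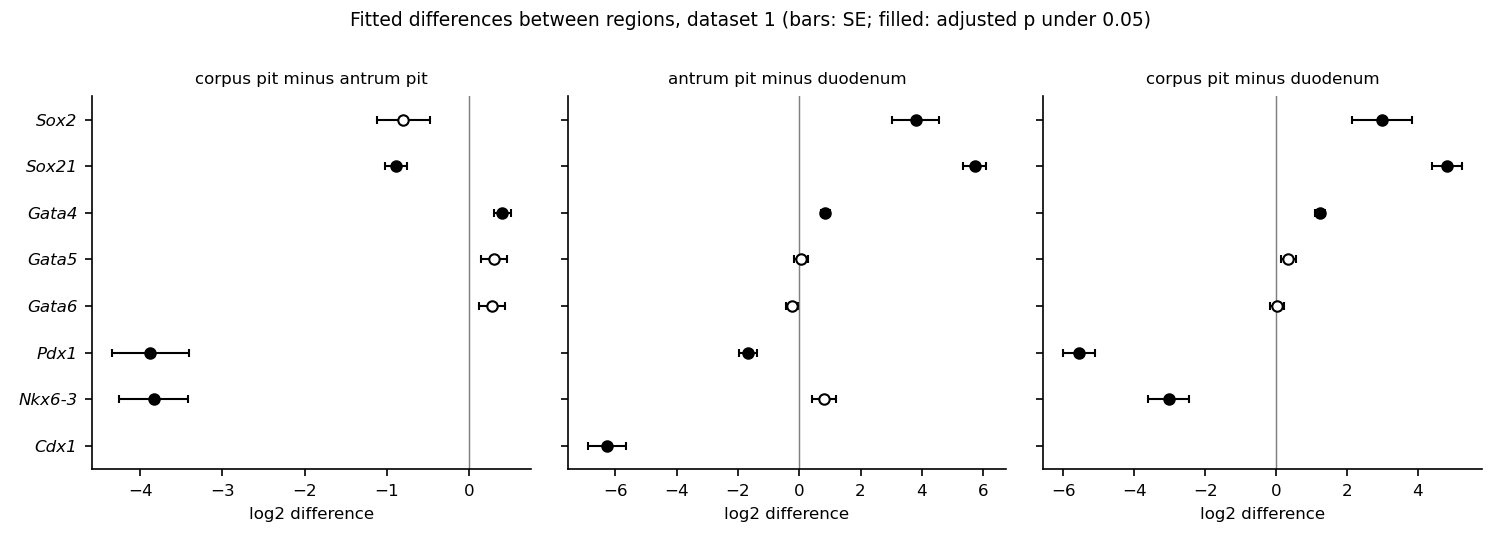
Log2 difference of each tested member with bars for its standard error in 3 comparisons of dataset 1, corpus pit minus antrum pit, antrum pit minus duodenum, and corpus pit minus duodenum. Filled points had an adjusted p under 0.05; Cdx1 is drawn only for antrum pit minus duodenum because it had 0 UMIs in the corpus pit. Pdx1 and Nkx6-3 lie near −4 for corpus minus antrum, and Gata5 and Gata6 are open in all 3 panels.

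The intestinal factors Cdx1 and Cdx2 were highest in the duodenum, and the pit groups had few or none of their UMIs. Cdx1 was 0 and 0 CPM in the corpus pit, 0.978 and 4.49 in the antrum pit, and 55.4 and 91.9 in the duodenum. Cdx2 was 0 and 0, 0.489 and 0.748, and 9.77 and 18.9. Corpus pit cells held 0 Cdx1 UMIs against 85 in the duodenum, at least 90.1-fold lower with a floor of 3 UMIs over the group, and 0 Cdx2 UMIs against 17, at least 18.0-fold lower. Cdx1 was lower in the antrum pit than in the duodenum by a ratio of 34.3 (8 against 85 UMIs; counting interval 16.7 to 82.1; log2 difference −6.27, SE 0.63; adjusted p = 8.1e-07), and Cdx2 stood at 2 against 17 UMIs, a ratio of 27.5 (6.52 to 245), with a test only in the fit with no low-count filter (adjusted p = 7.13e-05). The fitted Cdx1 difference averages antrum pre-pit cells and antrum mature pit cells, and the latter held 0 Cdx1 UMIs. It depends on how the fit treats a count of 0 and is not the log2 of the 34.3 ratio. Between the pit groups the antrum held 8 Cdx1 UMIs and the corpus 0, at least 2.62-fold more with the same floor. All 8 lay in 2 antrum pre-pit cells, the other 79 antrum pit cells held 0, and the fit did not call Cdx1 between the pit groups.

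Cdx UMIs outside the duodenum came from 6 cells, 4 of them with an earlier label of their own. Of 121 Cdx1 UMIs in dataset 1, 85 (70.2%) lay in 40 duodenum cells, 28 in 4 cells that the authors had earlier labelled Lgr5+/Axin2+, 8 in 2 antrum pre-pit cells, and 0 in the other 385 cells. Cdx2 gave 17, 2, 2 and 0 of 21 UMIs. The 2 antrum pre-pit cells each had over 1000 UMIs of Fcgbp and of Tff3 and together held all 1051 UMIs of Muc2, the goblet cell mucin, in that cluster. Without them the antrum pit had 0 Cdx1 UMIs in 79 cells. The 4 labelled cells, 1 in the isthmus-like and 3 in the neck cluster, had 1 to 10 Cdx1 UMIs each (at most 8 in a duodenum cell), 69 to 115 UMIs of Lgals4 and 6 to 19 of Cdh17, both intestinal genes, and 0 of Sox2 or Sox21. They account for all 27 Cdx1 UMIs behind the neck level of 16.1 ± 5.01. Leaving out either set of cells left 4, 5, 6 and 0 members called in the 4 comparisons of dataset 1. In thinned cells Cdx1 was detected in 32.8% of duodenum cells (20 of 61; 21.3% to 46.0%; 57.1% unthinned) and Cdx2 in 4.92% (18.6% unthinned), against 0 of 70 corpus pit cells for Cdx1, which allows a share with a UMI of up to 4.29% by 3 counts of the total and 5.13% by the exact interval.

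Detection of the factors in single cells was counted without thinning. Of 399 epithelial cells 300 had a UMI of Sox2 or Sox21, 50 of Cdx1 or Cdx2, and 3 of both kinds. These 3 cells had 71260, 32338 and 72289 UMIs, and the last also held 533 UMIs of Gkn2, 161 of Muc5ac and 35 of Muc6. No caller for doublets was run, and the sort kept single cells by gate. Pdx1 was found with either class, with Sox2 or Sox21 in 92 cells and with Cdx1 or Cdx2 in 44. In the antrum pit, 55 of the 56 Pdx1 cells also had a Sox gene and 55 had Nkx6-3. Of all 81 antrum pit cells, 79 had a Sox gene and 74 had Nkx6-3. In the duodenum, 39 of the 55 Pdx1 cells had a Cdx gene, 4 had a Sox gene, 27 had Nkx6-3, and 14 had neither a Sox nor a Cdx UMI. Of all 70 duodenum cells, 44 had a Cdx gene, 4 a Sox gene and 30 had Nkx6-3.

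**Figure D3:**
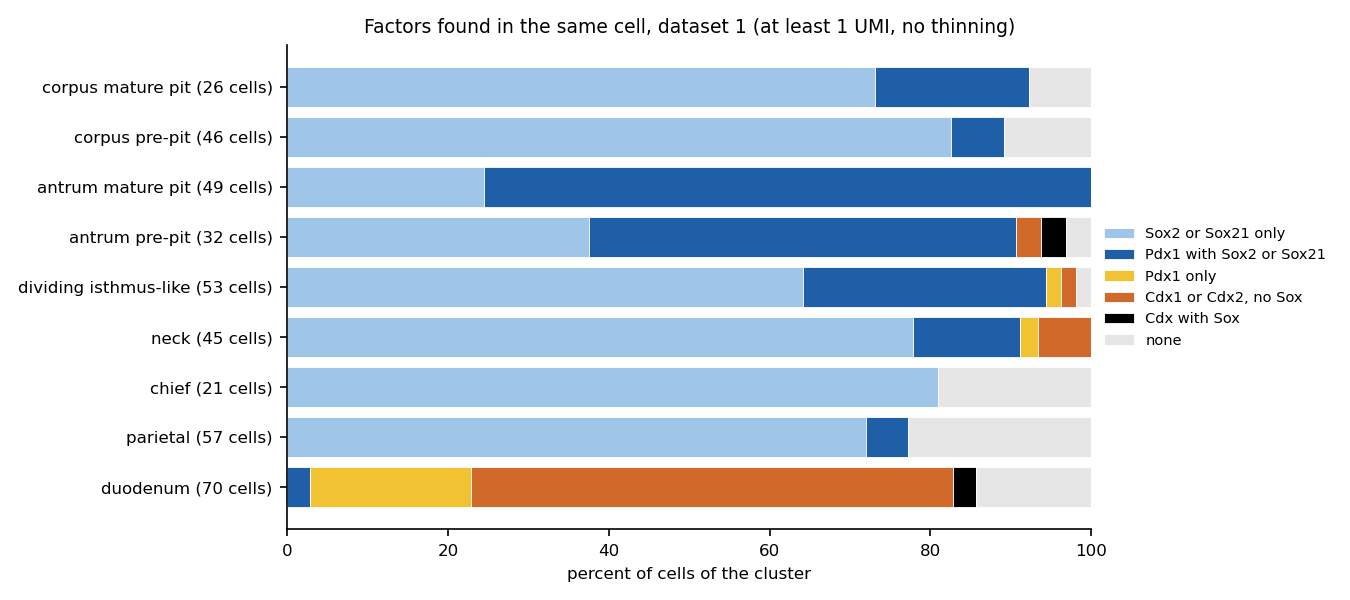
Share of cells, in percent, of each cluster of dataset 1 by the factors detected with at least 1 UMI and no thinning, as stacked bars for Sox2 or Sox21 only, Pdx1 with a Sox gene, Pdx1 only, Cdx1 or Cdx2 without a Sox gene, Cdx with a Sox gene, and none. Antrum pit bars are mostly Pdx1 with Sox, corpus pit bars mostly Sox only, and the duodenum bar mostly Cdx without Sox; Cdx with Sox is 3 cells.

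Barx1 was a mesenchymal transcript in these data. It stood at 465 and 517 CPM in mesenchymal cluster 12 and at 378 and 584 in mesenchymal cluster 11, which overlapped, and the duodenum and antrum mature pit clusters held 1 UMI each. The other 11 clusters had 0. In dataset 2 Barx1 gave 22 UMIs in all.

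Some endoderm regulators from a list of 20 factors also differed between pit cells and duodenum. Of 19 tested, 8 were higher and 6 lower in the antrum pit than in the duodenum, with a median log2 difference of 0.17. Over all genes 22.7% were higher and 25.5% lower there, with a median of 0.02. In the corpus pit 10 were higher and 6 lower, with a median of 1.14 with genes at 0 set to their bound. Over all genes 23.6% were higher and 26.8% lower there, with a median of 0.03. The forkhead factor Foxa1 was at 199 and 221 CPM in the corpus pit and 240 and 238 in the antrum pit but at 9.77 and 13.5 in the duodenum (log2 difference 4.36 for antrum and 4.03 for corpus against duodenum), and Foxa2 gave 4.18 and 4.17. The nuclear receptors Hnf4a and Hnf4g ran the other way. Hnf4a was 159.6 and 170.99, 198 and 203, and 615 and 485 in corpus pit, antrum pit and duodenum (−1.5 for antrum and −1.72 for corpus), and Hnf4g gave −3.94 and −4.64. Between corpus and antrum pit, 2 of the 19 factors were higher in the corpus, Sox9 (1.51) and Id2 (0.71). The 3 lower ones were Onecut2, Nkx6-2 (−2.55) and Klf5 (−0.52). The median was −0.17, with −0.01 over all genes, of which 3.16% were higher and 4.73% lower. All values named passed the adjusted test.

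Structural genes of the intestine and stomach were set beside these factors. Their lists hold genes that also mark the groups. Fabp2, Alpi, Sis and Lct mark enterocytes, Krt20 antrum pit cells, and Gkn1, Gkn2, Muc5ac and Tff1 pit cells. Differences in such markers follow in part from how the clusters were named, so the counts below are a description and not separate support. Of 16 intestinal genes tested from a list of 18, 15 were lower than in the duodenum in each pit group, the exception being Muc2 (25.5% and 26.8% of all genes were lower). The median log2 difference was −6.96 in the antrum pit and, with bounds, −8.99 in the corpus pit, with 0.02 and 0.03 over all genes. Corpus pit cells were below antrum pit cells in 6 of the 16 (Gpa33 −5.95, Krt20 −4.76, Alpi −3.75, Vil1 −2.47, Fabp2 −2.22 and Lgals4 −1.79), with a median of −2.01 with bounds (4.73% of all genes were lower, with a median of −0.01). Of 14 gastric genes, 12 were higher than in the duodenum in each pit group (medians 4.49 and 4.70; 22.7% and 23.6% of all genes were higher, with medians of 0.02 and 0.03), and Muc6, the gland mucin, was lower (−4.58 in antrum and −4.60 in corpus). The duodenum held 0 and 37 Muc6 UMIs in the 2 pools, and 35 of them lay in 1 cell that also held 533 UMIs of Gkn2 and 161 of Muc5ac. Corpus and antrum pit cells differed in 3 of the 14 gastric genes, Gkn1 (0.69), Gkn3 (−3.47) and Tff2 (−1.30), where 7.89% of all genes were called. Of the 9 genes listed as gastric mesenchyme, only Nr2f2, a nuclear receptor, was tested in dataset 1. It was higher in the corpus pit (279 and 262 CPM) than in the antrum pit (82.7 and 78.5), by 1.59, and higher in both than in the duodenum (3.26 and 17.6), by 4.30 and 2.71.

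Levels within the corpus were resolved by dataset 2, in which the 121 mature pit, 291 pre-pit, 1285 isthmus progenitor, 1247 neck, 180 chief and 702 parietal cells were compared. The endocrine-like and tuft-like clusters and clusters 18 and 19 were outside these types. The study places pit, neck and parietal lineages downstream of the isthmus, and these lineages were compared with it. The fit tested 13894 genes and 6 members. Sox2, Sox21, Gata4, Gata5 and Gata6 were present in all 6 types, whereas 133 Pdx1, 20 Nkx6-3, 22 Barx1 and 2 Cdx1 UMIs were found in all 3993 cells.

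**Figure D4:**
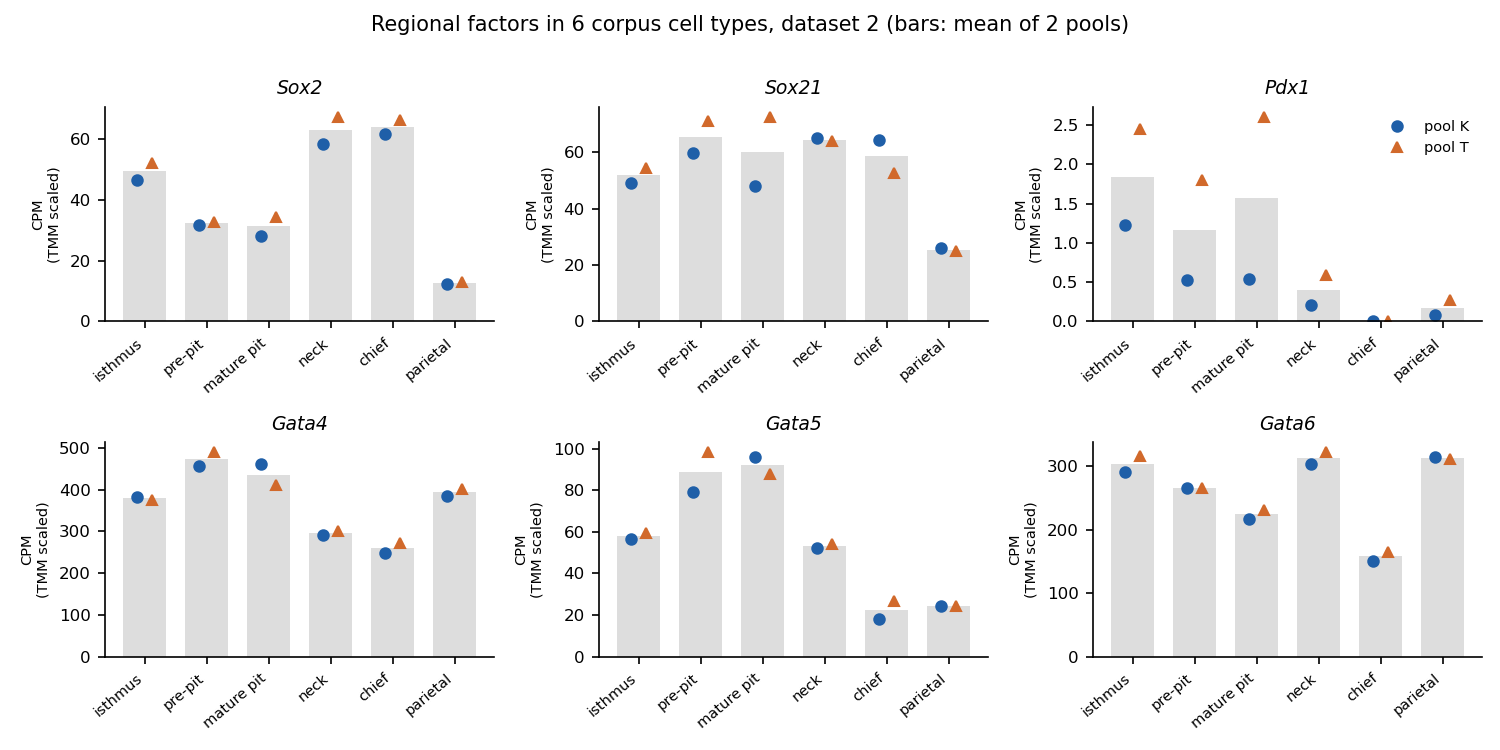
Level of 6 members in the 6 corpus cell types of dataset 2, in CPM after TMM scaling, with bars for the mean and points for pools K and T. With this scaling Sox2 falls from chief and neck cells to parietal cells, Gata5 is highest in pit cells, and Pdx1 stays under 3 in every pool. Without it Sox2 is lower in chief than in neck and isthmus cells.

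Sox2 was 61.8 and 66.5 CPM (pools K and T) in chief cells, 58.6 and 67.4 in neck cells, 46.7 and 52.3 in the isthmus, 31.8 and 32.8 in pre-pit cells, 28.3 and 34.3 in mature pit cells, and 12.2 and 13.1 in parietal cells. Parietal cells lay below all other types and the isthmus lay between neck and pre-pit cells with no overlap. Over all 20 single clusters the highest Sox2 mean was in D cell-like cluster 16 (81.9; 31 cells), outside these types. Neck cluster 12 (75.4) followed, and the 2 clusters overlapped. From isthmus to parietal cells Sox2 was lower by a log2 difference of −1.94 (SE 0.11; adjusted p = 1.32e-09), and Sox21 by −0.999 (SE 0.13; adjusted p = 6.54e-06). From isthmus to pre-pit cells Sox2 was lower by −0.61 (SE 0.11; adjusted p = 0.00121; 0.0879 without pool T), and from isthmus to neck cells it was higher by 0.39 (SE 0.09; adjusted p = 0.00319; 0.0509 without pool T). In thinned cells Sox2 was detected in 43.3% of neck, 38.0% of isthmus, 27.2% of chief, 24.7% of pre-pit, 19.7% of mature pit and 8.13% of parietal cells (69.4%, 75.6%, 66.7%, 52.2%, 57.0% and 30.8% unthinned).

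Sox21 was flatter, at 59.8 and 71.0 in pre-pit, 65.2 and 63.9 in neck, 47.9 and 72.5 in mature pit, 64.5 and 52.5 in chief, 49.1 and 54.6 in isthmus, and 25.88 and 24.98 in parietal cells. All types but parietal cells overlapped with another. Sox21 was higher in neck cells than in the isthmus by 0.36 (SE 0.12; adjusted p = 0.0198), a call that was lost without pool K (0.227), without pool T (0.0547) and in DESeq2 (0.0582).

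The GATA factors parted between lineages. Gata4 was 457 and 489 in pre-pit cells, 461 and 411 in mature pit, 385 and 402 in parietal, 382 and 375 in isthmus, 292 and 301 in neck, and 249 and 272 in chief cells. It was higher in pre-pit cells than in the isthmus by 0.32 (SE 0.09; adjusted p = 0.0147) and lower in neck cells by −0.31 (SE 0.09; adjusted p = 0.00932). Both Gata4 calls were lost without either pool, at adjusted p = 0.0970 (without K) and 0.272 (without T) for pre-pit cells and 0.161 and 0.0700 for neck cells, and the pre-pit call also with no low-count filter (0.0957). Gata5 ran from 96.3 and 88.1 in mature pit and 79.1 and 98.3 in pre-pit cells through 56.7 and 59.6 in the isthmus and 52.2 and 54.3 in neck cells to 24.2 and 24.5 in parietal and 18.1 and 27 in chief cells. The difference from the isthmus was 0.62 (SE 0.11; adjusted p = 0.000749; 0.0611 without pool T) in pre-pit and −1.23 (SE 0.11; adjusted p = 1.7e-07) in parietal cells. Gata6 was 314 and 311 in parietal, 303 and 322 in neck, 290 and 316 in isthmus, 266 and 265 in pre-pit, 217 and 230 in mature pit, and 149.8 and 165.4 in chief cells. By single cluster its highest means were in isthmus clusters 11 (342) and 5 (337), which overlapped. From neck to chief cells, which have been held to derive from neck cells, Gata6 was lower by −0.96 (SE 0.09; adjusted p = 1.62e-06) and Gata5 by −1.18 (SE 0.16; adjusted p = 5.87e-05), while Gata4 differed by −0.17 (adjusted p = 0.174).

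Pdx1 was low throughout the corpus, with 29 and 72 UMIs in the isthmus of pools K and T (1.23 and 2.45 CPM), 0.544 and 2.60 in mature pit cells, 0.522 and 1.81 in pre-pit cells, 0.206 and 0.586 in neck cells, 0.0737 and 0.266 in parietal cells, and 0 in 180 chief cells. Isthmus cells had more Pdx1 than neck cells, with 101 UMIs against 11, a ratio of 4.90 (counting interval 2.62 to 10.1; log2 difference of neck minus isthmus −2.18, SE 0.61; adjusted p = 0.01; 0.0615 without pool K), and more than parietal cells, with 101 against 4, a ratio of 11.9 (4.49 to 44.3; log2 difference −3.40, SE 0.75; adjusted p = 0.00129). A Pdx1 UMI was found in 1.49% of thinned isthmus cells (19 of 1279; exact 95% interval 0.897% to 2.31%; 4.44% unthinned, 57 of 1285), and in 0.143% of parietal cells (0.570% unthinned). Of the 85 Pdx1 cells among 3826 epithelial cells of dataset 2, 83 also had a Sox gene, 0 had Nkx6-3 and 0 a Cdx gene. Among all 3826 cells, 3282 had a Sox gene, 11 had Nkx6-3 and 0 a Cdx gene. The absence of Nkx6-3 and Cdx from the Pdx1 cells is therefore not informative. Levels of the 2 datasets were scaled separately and were not tested against each other.

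By comparison, 3 of 6 members were called for pre-pit against isthmus (27.8% of all genes; 12.3% higher and 15.5% lower in the first-named type), 4 of 6 for neck against isthmus (50.7%; 26.4% and 24.3%) and 2 of 6 for chief against neck (38.6%; 18.6% and 19.9%). They were called in 4 of 6 for parietal against isthmus (71.8%; 35.2% and 36.7%) and 0 of 6 for mature pit against pre-pit (10.4%; 6.52% and 3.84%). With the pool as a block, which pairs the cell types of the same mice, 5 members were called for pre-pit against isthmus, Sox21 (0.34, adjusted p = 0.031; 0.0649 with no block) and Gata6 (−0.18, adjusted p = 0.0463; −0.19 and 0.113 with no block) being added. In the mature pit comparison the 1 member with an unadjusted p under 0.05 was Gata6 (−0.19; unadjusted p = 0.0443, adjusted p = 0.192), and DESeq2 also called 0. The remaining differences there were 0.02 for Sox2, −0.05 for Sox21, −0.06 for Gata4, 0.10 for Gata5 and 0.53 for Pdx1. Of the 19 endoderm factors tested in dataset 2, 3 were higher and 3 lower in mature pit than pre-pit cells, 3 and 3 in pre-pit than isthmus, 5 and 4 in neck than isthmus, 2 and 10 in chief than neck, and 2 and 12 in parietal than isthmus cells. In parietal cells Hnf4a (−2.73), Klf4 (−3.74) and Klf5 (−1.93) were lower and Foxa2 (0.80) and Id2 (1.10) were higher. In neck cells Isl1 (1.54) and Sox9 (1.06) were higher. The list's medians were −0.08, −0.09, 0.10, −0.93 and −0.49 in that order, with −0.02, 0.00, 0.06, −0.07 and −0.05 over all genes.

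**Figure D5:**
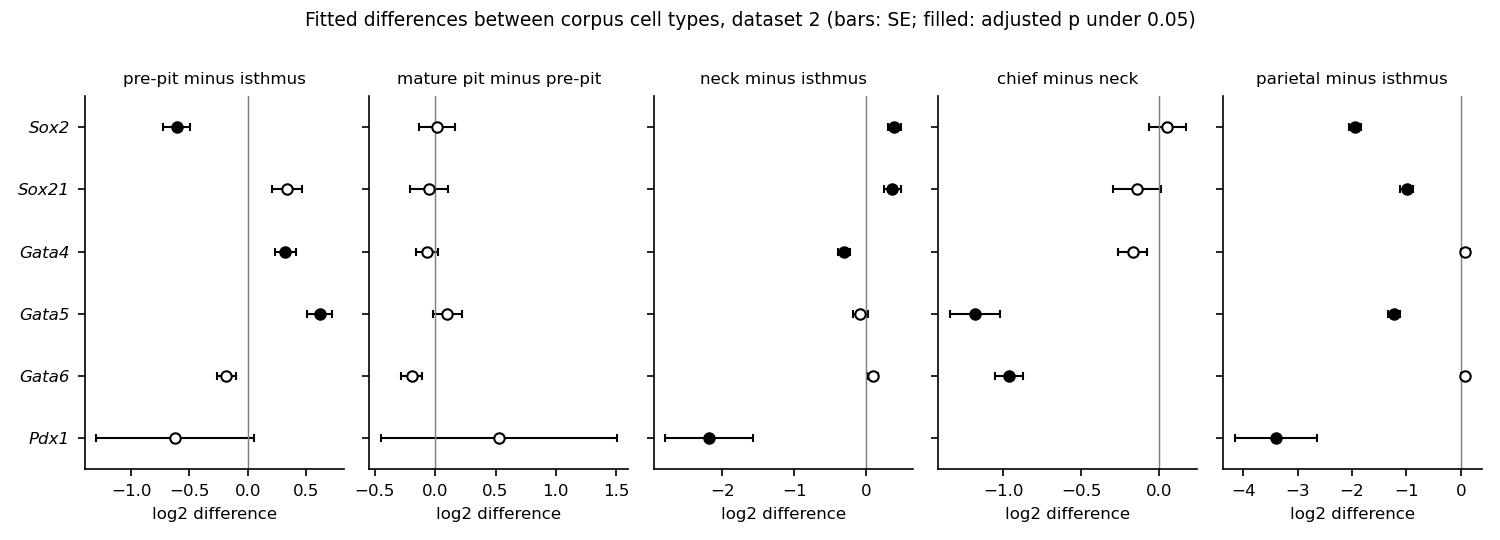
Log2 difference of each tested member with bars for its standard error in 5 comparisons of corpus cell types of dataset 2, with filled points for an adjusted p under 0.05. Pdx1 is not drawn for chief minus neck because chief cells had 0 UMIs. Gata4 and Gata6 lie near 0 for parietal minus isthmus, where Sox2, Sox21, Gata5 and Pdx1 are filled and negative.

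Genes with the pattern most like each member across clusters were ranked by Pearson's r of log2(CPM + 1), as a description over 15 clusters (dataset 1) or 20 (dataset 2) that share libraries and depth. In dataset 1 the closest genes to Pdx1 were Gm27033 (0.97), Plut (0.96) and Reep6 (0.93). Plut overlaps Pdx1 on the opposite strand over 1563 bases with no shared exon, and Gm27033 starts 4871 bases beyond it. Nkx6-3 was closest to Pdx1 itself (0.91), Ddc (0.89) and Maob (0.88), and Cdx1 to Cdh17 (0.96), Myo7b (0.94) and Gm1123 (0.93). Sox21 was closest to Sh2d4a, Rasef and Lypd6b (0.97 each), Sox2 to Dagla (0.94), Utp18 and Mettl1 (0.93 each), and Barx1 to Foxf2, Col6a3 and Sall1 (1.00 each). Gata4 was closest to Pkp2 (0.99), Gata5 to Rab25 (0.99) and Gata6 to Lsr (0.99). In dataset 2 Sox2 was closest to Ptpn13 and Foxp2 (0.95 each), Gata4 to Bicdl2 (0.99), Gata5 to Tjp3 (0.98), Gata6 to Pgap3 (0.99) and Pdx1 to Vstm2b, Gsdmc2 and Mucl3 (0.92 each).

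Overlapping transcripts bear on how the values are read, since the counting is not stated to use strand. The overlaps come from a later GENCODE release than the one the study counted with, so a partner may have been absent from the counting. Gata6 lies at chr18:11051565-11086995 (GRCm39, forward strand) and shares exons with Gata6os on the other strand, and Gata5 at chr2:179966880-179976509 (reverse strand) shares exons with Gata5os. Sox2 shares exons with Gm64654, Sox21 with Sox21os1 and Nkx6-3 with Gm64285, all on the opposite strand. Gata4 overlaps Gm63205 and Gm49390 with no shared exon. If the counting did not use strand, reads from partners with shared exons could not be told apart there. Gata6os was highest in parietal cells, at 97.6 ± 8.05 CPM against 36.6 ± 0.789 in neck cells of dataset 1, and was higher in parietal than isthmus cells of dataset 2 by 1.34 (SE 0.09; adjusted p = 6.77e-09). Gata5os was higher there by 2.53 (SE 0.49; adjusted p = 0.000497), in the comparison in which Gata5 was lower and Gata6 differed by 0.07. Sox2 (chr3:34704554-34706610, forward strand) lies within Sox2ot with no shared exon, Pdx1 at chr5:147206769-147212658 (forward strand), Cdx2 at chr5:147237615-147244091 (reverse strand), Nkx6-3 at chr8:23643280-23648964 (forward strand) and Sox21 at chr14:118470644-118474442 (reverse strand). Barx1, Cdx1 and Cdx2 overlap no other annotated gene.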

How the data were processed

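Male mouse gastric cells were profiled by Quartz-Seq2 in 2 datasets of 2 pools each. Per the study's methods, the authors demultiplexed reads with bcl2fastq (2.20.0.422, from the submitters' processing notes), aligned them with STAR to GRCm39 (Gencode annotation), counted UMIs with FASTX-Toolkit and Drop-seq tools, and kept cells with enough detected genes. The deposited tables give raw UMI counts for each well and gene name, and the authors' cell annotation gives the Seurat cluster and the percent of mitochondrial UMIs of each kept cell. Authors' comparison columns were not used, and 0 columns of per-sample values were left unused. The counts of all kept cells (491 and 3993) were identical in the plate tables, which place 86.8% and 98.8% of UMIs in kept cells.

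UMIs of kept cells were summed per cluster or cell type and pool, since cells of a pool are not independent: dataset 1 gave 16 sums of 8 clusters and dataset 2 gave 12 sums of 6 types, with 8 and 6 residual degrees of freedom. Genes were filtered with filterByExpr, scaled by TMM and tested with edgeR (4.0.16) glmQLFit and glmQLFTest in R (4.3.3), with an adjusted p under 0.05 as the threshold, after the steps were tested on simulated data. Ratios of UMIs have exact 95% counting intervals, and a group at 0 was given a floor of 3 UMIs. Shares of cells were taken after thinning each cell to 10000 UMIs, with cells below that left out, and have exact binomial intervals. Such intervals cover counting error only. Alternatives were DESeq2 (1.42.0), RLE scaling, no scaling of levels, no low-count filter, all clusters in one fit, the plate as the unit, the pool as a block, other thinning depths, leaving out each pool, and, chosen after seeing the data, leaving out 3 small sets of cells. A pool left out was removed only from the clusters or types compared, and its sums of the others stayed in the fit. Same pools are the same mice, so clusters are paired by source. Over pairs of clusters the correlation of same-pool deviations was −0.0359 to 0.0732 in dataset 1 (median 0.0266; 0 of 28 above 0.1) and 0.0689 to 0.411 in dataset 2 (median 0.132; 12 of 15 above 0.1).

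The members, the 4 gene lists (endoderm factors, intestinal, gastric and gastric mesenchyme genes) and the cell type markers were chosen with earlier results of these data known. Named genes are the members, these lists, overlapping or neighbouring genes of members, and the 3 genes most correlated with each member of at least 50 UMIs, among genes with a mean of at least 10 CPM, on a log2 scale with a pseudocount of 1. Cells singled out by their own transcripts were chosen after their values were seen. Gene positions and overlaps are from GENCODE on GRCm39, in a later release than the study used for counting.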

Additional observations from a re-analysis of the deposited data

Results flagged for a closer look

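Among the 6 plates of a cell type and pool in dataset 2, 3 of 60 sets had a plate far from the others, and chance gives about 1 in 20. Plate levels are CPM with no TMM scaling. Gata4 in isthmus cells of pool K was 355 CPM on 1 plate, against 386 on the nearest plate and a median of 389. Gata6 in neck cells of pool T was 363 on 1 plate, against 312 on the nearest plate and a median of 308. Gata6 in parietal cells of pool T was 279 on 1 plate, against 233 on the nearest plate and a median of 222.

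Wells that were not kept as cells also held UMIs of members. In dataset 1, 1813 such wells with 3016503 UMIs held 145 UMIs of Gata4, 105 of Gata6, 36 of Gata5, 27 of Sox21, 24 of Nkx6-3, 20 of Pdx1, 12 of Cdx1, 10 of Sox2 and 4 of Cdx2, beside 25642 of Gkn2 and 3731 of Apoa1. In dataset 2, 615 such wells with 1654145 UMIs held 114 UMIs of Gata4, 90 of Gata6, 19 of Gata5, 16 of Sox2, 16 of Sox21 and 13 of Barx1, the last in 3 wells, and 0 of Pdx1, Nkx6-3 or Cdx1.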

How the results depend on the processing

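Of 88 alternatives to the counts and shares compared, 77 stayed within 1.5 times or the spread and 11 moved, and of 541 alternatives to single members 495 kept direction and side of the threshold, 18 lost it, 11 gained it and 17 changed sign, the last all for differences that were not called. For pre-pit against isthmus, 5 members were called rather than 3 when each cluster was a group, when the plate was the unit and with the replicate block, and the pairing changed no other member call. For mature pit against pre-pit, 1 was called with the plate as the unit (Gata6, −0.21, adjusted p = 0.0140), where main counts were 0. The share of antrum pit cells with Pdx1 was 16.0% after thinning to 5000 UMIs, 56.0% at 20000 and 69.1% unthinned, against 33.3%. Leaving out 1 pool at a time gave 2 to 3 members for corpus against antrum pit, 4 to 6 for antrum pit and 5 to 7 for corpus pit against duodenum, 0 to 0 for region by maturity and for mature pit against pre-pit, 0 to 2 for pre-pit against isthmus, 0 to 1 for neck against isthmus, 2 to 2 for chief against neck, and 3 to 4 for parietal against isthmus. Signs changed for Gata6 in antrum pit minus duodenum (−0.33 without the first and 0.12 without the second pool) and in corpus pit minus duodenum (−0.0025 with RLE, −0.0093 with only the earlier labelled duodenum cells, −0.0096 by plate, −0.30 without the first and 0.60 without the second pool), and for Sox2 in chief minus neck (−0.063 with no filter). In mature pit minus pre-pit the values without pool K and without pool T were −0.19 and 0.052 for Gata4, −0.097 and 0.32 for Gata5, 0.13 and −0.13 for Sox2, and 0.091 and −0.28 for Sox21. In region by maturity they changed by plate for Gata4 (0.063) and Sox2 (−0.13), and without the first and the second pool the values were −0.40 and 0.31 for Gata4, 0.19 and −0.32 for Gata5, 0.23 and −0.32 for Gata6, 6.60 and −0.997 for Pdx1, and 0.16 and −0.020 for Sox2. The cause was not tested. Over all genes, calls fell from 841 to 206 and 244 without the first or second pool for corpus against antrum pit, and without the second from 5135 to 3151 (antrum) and 5377 to 3340 (corpus) against duodenum. They fell without K and T from 1439 to 668 and 417 (mature pit; 2590 by plate), 3867 to 1828 and 1225 (pre-pit), 7045 to 4403 and 4256 (neck), and 5358 to 3538 and 3470 (chief). Region by maturity gave 2 genes, against 12 in DESeq2, 72 with no filter, 4 with all clusters, 4 with the block, 1 without the 2 goblet-marker cells and 0 without the second pool. Without TMM scaling the cluster with the highest mean moved for Barx1, Gata4, Gata5 and Sox2 in dataset 1 and for Gata4 and Gata5 in dataset 2. Depth limits the low members: Cdx2 had 21 UMIs in dataset 1, and Nkx6-3 20 and Cdx1 2 in dataset 2.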

Other observations

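Cells with and without a Pdx1 UMI were set side by side within clusters, a split made after the values were seen, so the values are a description without a test. Levels of these cells are CPM with the pools merged and no TMM scaling. In the isthmus-like cluster of dataset 1, where corpus and antrum cells could both lie, 18 cells had Pdx1 and 35 had not. The Pdx1 cells held 90 Nkx6-3 UMIs in 14 cells (83.7 CPM), and the rest held 1 UMI (0.511). Basp1, a corpus pit marker, was 26.0 CPM in the Pdx1 cells and 230 in the rest, and Sctr, another, was 7.44 and 43.4. Gkn3 was 1756 and 14.3, Krt7, an antrum pit marker, was 139 and 30.1, and the homeodomain factor Nkx6-2 was 66.0 and 11.2. Sox2 (40.9 and 39.9) and the proliferation marker Mki67 (349 and 296) were close. In neck cells of dataset 1, 9 cells had Pdx1 and 36 had not. Nkx6-3 (111 and 12.6), Gkn3 (19178 and 3739) and Basp1 (0 and 19.4) differed in the same direction as in isthmus-like cells. Sox21 did not, at 26.96 and 69.04 in neck cells against 91.16 and 58.76 in isthmus-like cells. Sox2 was 29.96 and 44.62 in neck cells. The Pdx1 cells included 2 neck cells and 1 isthmus-like cell with a Cdx UMI, which the authors had earlier labelled Lgr5+/Axin2+.

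In the isthmus of dataset 2, which was prepared from the corpus alone, 57 cells had Pdx1, with at most 9 UMIs in a cell, and 1228 had not. Nkx6-3 was 0 and 0.140 CPM there, Basp1 was 211 and 178, Sctr 20.7 and 27.1 and Sox2 37.8 and 50.5. Krt7 was 42.7 and 22.7, Gkn3 82.6 and 49.2, and Krt20 38.5 and 2.34, with Krt20 in 2 of the Pdx1 cells and 13 of the rest. Nkx6-2 was 45.2 in the Pdx1 cells (in 38 cells) and 6.68 in the rest (in 179 cells). Pdx1 cells had more UMIs (median 44988) than the others (37304).

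Endocrine cluster 9 of dataset 1 held 24 cells. The 5 with at least 100 UMIs of gastrin (Gast) held 102 of its 135 Nkx6-3 UMIs, 6 to 36 a cell, and 9 of its 14 Pdx1 UMIs. The 3 with somatostatin (Sst) held 10 of 16 Sox2 UMIs. The 9 with ghrelin (Ghrl) and neither of the others had 0 Nkx6-3 and 0 Pdx1 UMIs and 25 of Gata4, and the remaining 7 had 27 of Nkx6-3.

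In dataset 2, 19 of the 22 Barx1 UMIs lay in 5 cells of pool K in tuft-like cluster 15. These cells had 137 to 279 UMIs of stromal and smooth muscle markers and at most 3 of tuft markers.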
